A study of Mus musculus with 6 samples.

Results

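B1, B2, B3 and B4 are the main short interspersed elements (SINEs) of the mouse genome. They were counted here in polyadenylated RNA of p53-null embryos with and without a wild-type copy of the histone H3.3 genes. The repeat names beginning with B1_, B1F, PB1, B2_, B3 or B4 were taken, which gave 21 of the 1217 names in the files. They comprised 4 names of proto-B1, the oldest monomeric elements, 3 of B1F, 7 of B1, 3 of B2, 2 of B3 and 2 of B4. Families were set by the name alone. SINE names outside these patterns, such as ID_B1 and RSINE1, were left out whatever their relation to these families. All 21 passed the filter on low counts, as did 853 names in all. Each name sums many copies across the genome, so a value belongs to a class of sequence and to no single locus.

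The samples were 6 whole mouse embryos at E10.5, 3 in each of 2 groups, on a mixed C57BL/6, CD1 and 129 background. Knockout embryos were Trp53-/- with a floxed and a null allele of both H3f3a and H3f3b (fl/-). Control embryos were Trp53-/- with a floxed and a wild-type allele of both genes (fl/+). Embryos of both groups carried the Sox2-Cre transgene in 1 copy (Tg/0), a recombinase active in the epiblast, so the floxed alleles of the controls were open to deletion too, and no group had intact H3.3 genes or p53. Sox2-Cre acts in the embryo proper and largely spares extraembryonic tissue. The labels do not say whether the embryos were littermates, so the embryos may not be independent of each other. The p-values speak of the spread among these 6 samples, which can hold technical as well as biological differences.

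SINEs are copied through an RNA intermediate with the enzymes of LINE-1. Proto-B1, B1F and B1 descend from 7SL RNA, the RNA of the signal recognition particle that targets proteins for secretion. B2 and B3 descend from a tRNA, and B4 joins a tRNA-derived part to a B1-like part. Their own promoters are read by RNA polymerase III, while most copies lie within or between genes and are also carried in transcripts of RNA polymerase II. The counts per name do not separate these sources. By origin the 21 names divide into 14 derived from 7SL RNA and the 7 of B2, B3 and B4. H3.3 is the histone H3 variant placed in chromatin outside DNA replication, at active genes and also at heterochromatin and repeats.

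H3f3a was measured first as a check of the labels. Its level was 337, 366 and 342 CPM (counts scaled to library size by TMM) in controls 1 to 3 and 69.9, 64.6 and 68.2 CPM in knockouts 1 to 3. On the log2 scale the difference was -2.37 ± 0.07 (SE), and edgeR gave an adjusted p of 1.5e-06. H3f3b fell less, from 690 ± 31.2 to 454 ± 58.2 CPM (SD, n = 3 each), or -0.60 ± 0.10 (SE) on the log2 scale, and its adjusted p by edgeR was 0.027. H3f3b was no longer called by edgeR when some single embryos were left out: the adjusted p was 0.146 leaving out control 1, 0.117 for control 2, 0.065 for control 3 and 0.0999 for knockout 3. It stayed called by edgeR leaving out knockout 1 (adjusted p = 0.0458) or knockout 2 (0.0024). Libraries held 39395630 to 45782190 alignments, of which 24952853 to 30461689 were counted in genes. Alignments that were not unique stayed uncounted. They made up 22.6%, 22.1% and 21.4% in controls 1 to 3 and 20.9%, 18.2% and 20.3% in knockouts 1 to 3, so every knockout was below every control (exact permutation test, two-sided, p = 0.1, the smallest that 3 against 3 allows). Their part in the SINE counts was not tested, and young, near-identical SINE copies are represented only by reads that tell them apart. The markers of whole embryo tissues were all present in both groups, 17 of 17. Of the 13 tested macrophage markers edgeR called 12 lower at an adjusted p under 0.05, beside 0.935% of all tested genes. Their summed level was 71.4 to 85.8 CPM in controls and 6.57 to 7.04 CPM in knockouts. The defining genes C1qb and C1qc were at 0 counts in every knockout. The other called markers were Csf1r, Cx3cr1, C1qa, Mrc1, Emr1, Fcer1g, Tyrobp, Mpeg1, Ptprc and Laptm5, and Cd68 was not called. In whole embryos, fewer cells of a type and less RNA per cell cannot be told apart. Their part in the SINE values was not tested.

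SINE levels varied together across the embryos, and the difference between embryos of 1 genotype was as large as that between genotypes. Summed over the 21 names, controls 1 to 3 had 8639, 10474 and 13002 SINE counts per 1000000 gene counts. Knockouts 1 to 3 had 18772, 9393 and 19830. Knockouts 1 and 3 were above every control, and knockout 2 was between control 1 and control 2. The group means were 10705 ± 2191 and 15998 ± 5745 (SD, n = 3 each), a ratio of 1.49, or 0.58 on the log2 scale. The sum is given without a test. All levels below are counts per 1000000 gene counts of the same library unless another scale is named.

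Of the 4 proto-B1 names, PB1D10 was the most abundant. It had 800, 941 and 1156 in controls 1 to 3 and 1602, 871 and 1671 in knockouts 1 to 3. The log2 fold change of PB1D10, knockout over control, was 0.52 ± 0.30 (SE). Its groups overlapped because knockout 2 was below controls 2 and 3. PB1, PB1D7 and PB1D9 had the same order of embryos and log2 fold changes of 0.55, 0.57 and 0.53.

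The B1F names are fossil monomers between proto-B1 and B1. B1F itself had 437, 501 and 627 in controls 1 to 3 and 873, 464 and 911 in knockouts 1 to 3. This gave a log2 fold change of 0.52 ± 0.30 (SE). B1F1 and B1F2 gave 0.61 and 0.66, again with knockouts 1 and 3 high and knockout 2 within the control range.

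Among the B1 names, B1_Mus1 had the highest mean over all 6 embryos (B1_Mur4 had the higher control mean), with 560, 684 and 872 in controls 1 to 3 and 1302, 640 and 1374 in knockouts 1 to 3. This name had a log2 fold change of 0.65 ± 0.33 (SE). B1_Mm, whose log2 fold change of 0.50 ± 0.29 was the smallest above 0, had 257, 302 and 360 against 499, 282 and 518. For both names knockouts 1 and 3 were above all controls and knockout 2 was not. B1_Mur1, B1_Mur2, B1_Mur3 and B1_Mus2 lay between them, at 0.53 to 0.61. B1_Mur4 alone did not follow, with 665, 765 and 844 in controls 1 to 3 and 706, 328 and 1072 in knockouts 1 to 3. In B1_Mur4 knockout 1 lay inside the control range and knockout 2 was the lowest of all 6 embryos. The log2 fold change of B1_Mur4 was -0.11 ± 0.39 (SE).

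B2 elements carry a promoter for RNA polymerase III, and their RNA is known to bind RNA polymerase II during heat shock. B2_Mm2, the most abundant name of the family, had 570, 729 and 859 in controls 1 to 3 and 1327, 686 and 1399 in knockouts 1 to 3. The log2 fold change of B2_Mm2 was 0.66 ± 0.31 (SE). B2_Mm1a and B2_Mm1t, the younger names, gave 0.53 ± 0.29 and 0.63 ± 0.29. B2_Mm1a was the single name for which control 2, at 321, was above control 3, at 302.

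B3, an older relative of B2, was the most abundant of the 21 names in each embryo. It had 1035, 1266 and 1709 in controls 1 to 3 and 2669, 1204 and 2745 in knockouts 1 to 3. Its log2 fold change was 0.72 ± 0.36 (SE), and that of B3A was 0.70 ± 0.34. B4A had the highest log2 fold change of the 21 names, 0.79 ± 0.37, from 455, 573 and 780 in controls 1 to 3 and 1283, 536 and 1303 in knockouts 1 to 3. B4 had 0.68 ± 0.33. In all 4 names knockouts 1 and 3 were above every control and knockout 2 was between controls 1 and 2.

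**Figure D1:**
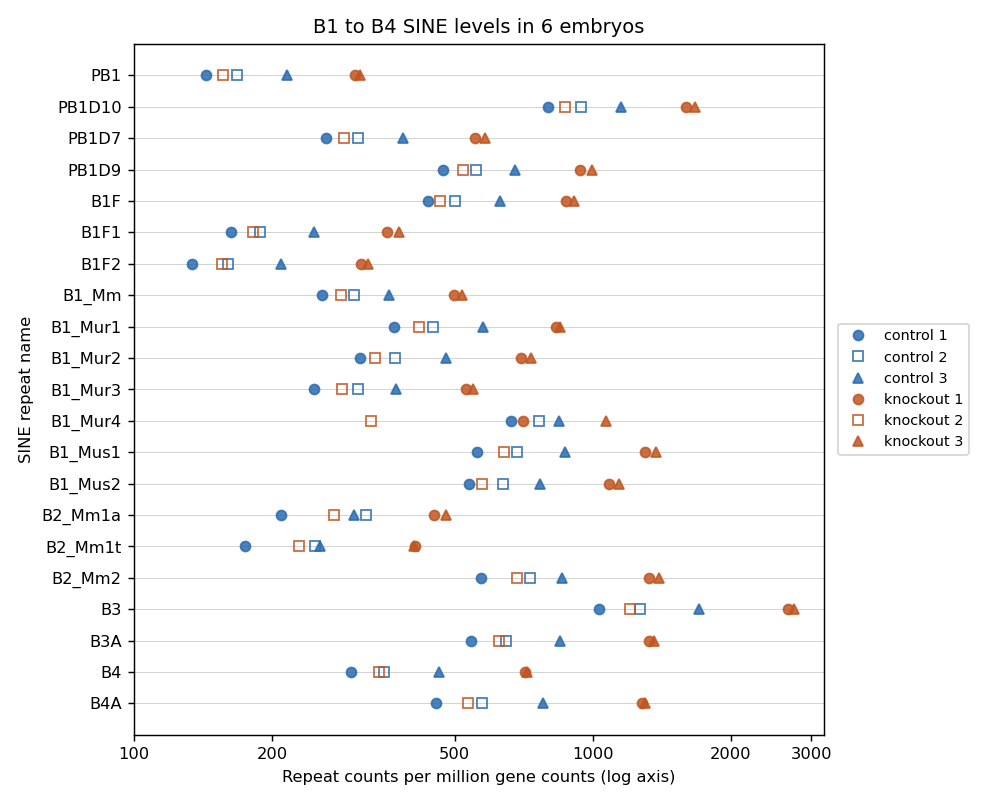
Level of each SINE name in each embryo, as repeat counts per 1000000 gene counts on a log axis, with 1 point per embryo and names grouped by family. Knockouts 1 and 3 lie to the right of every control for 20 of 21 names, knockout 2 lies among the controls, and B1_Mur4 departs from this order.

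No SINE name was called different between the groups by edgeR's quasi-likelihood test over all repeat names, at an adjusted p under 0.05. In that test 0 of 21 SINE names and 0 of 853 tested names (0%) were called. The adjusted p was 0.272 to 0.277 for 20 of the names and 0.829 for B1_Mur4. At an unadjusted p under 0.05 edgeR found 0 of the 21 names, beside 11.6% of all names higher and 0% lower. DESeq2 called 0 of the 21 names and 2 of all 853 (0.234%), and 7 of the 21 had an unadjusted DESeq2 p under 0.05, beside 23% of all names.

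The direction was shared with nearly all repeats. The log2 fold change was above 0 for 20 of 21 SINE names, beside 94.1% of all tested names. The median was 0.59 over the 21 names and 0.54 over all tested repeat names. For none of the 21 were all knockouts above all controls, beside 10.3% of all names. Knockouts 1 and 3 were above every control for 20 of 21, beside 83.9% of all names, and for the same 20 knockout 2 was within the control range. The 6 embryos had 1 order in 18 names: knockout 3, knockout 1, control 3, control 2, knockout 2, control 1.

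Knockout 2 decided the call. With that embryo left out, edgeR called 20 of 21 SINE names higher, with adjusted p of 0.0068 to 0.0102 and log2 fold changes of 0.73 to 1.10. In the same fit 63.9% of 895 tested names were called higher and 0.223% lower, and the median log2 fold change of all names was 0.80. B1_Mur4 had 0.23, and edgeR gave an adjusted p of 0.329. Leaving out any other embryo gave 0 calls among the 21.

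Reads that fell outside annotated genes moved with the SINE level. They made up 9.79%, 10.7% and 13.1% of the alignments in controls 1 to 3 and 18.3%, 10.6% and 18.0% in knockouts 1 to 3. Their 95% Wilson intervals, which cover counting error only, reached at most ± 0.0118 percentage points. Knockouts 1 and 3 again stood above all controls, and knockout 2 was between control 1 and control 2. The means were 11.2% ± 1.69 and 15.6% ± 4.39 (SD, n = 3 each), and an exact permutation test, two-sided, gave p = 0.3, where the smallest p that 3 against 3 allows is 0.1. The sources used here do not say whether introns counted as genes.

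Set against those reads, the SINE level was nearly level across the 6 embryos. It was 59.1, 64.9 and 64.6 SINE counts per 1000 reads outside genes in controls 1 to 3 and 61.8, 62.7 and 67.2 in knockouts 1 to 3. The groups overlapped, with means of 62.8 ± 3.26 and 63.9 ± 2.93 (SD, n = 3 each) and a log2 ratio of 0.02. On this scale the embryos spanned 59.1 to 67.2, while relative to gene counts they spanned 8639 to 19830. The same alignments were counted against genes and against repeats, so SINE counts can also include reads inside genes and are not a subset of the reads outside them. The part of the reads outside genes in the SINE level was not tested beyond this scaling and a fit that held their share constant.

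**Figure D2:**
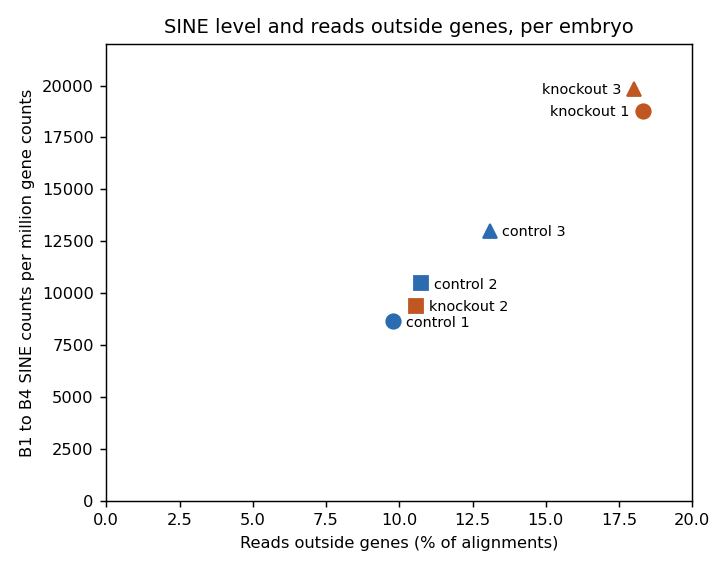
Summed B1 to B4 SINE counts per 1000000 gene counts (vertical axis) against reads outside genes as a percentage of alignments (horizontal axis), with 1 point per embryo. Knockouts 1 and 3 sit at 18.3% and 18.0% with 18772 and 19830 on the vertical axis, and knockout 2 sits among the controls.

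The ratio of knockout to control varied somewhat by family. Relative to gene counts the log2 ratio of group means was 0.53 for proto-B1, 0.57 for B1F, 0.46 for B1, 0.63 for B2, 0.72 for B3 and 0.75 for B4. The B1 value was 0.58 without B1_Mur4. Per read outside genes the same ratios were -0.01 for proto-B1, 0.02 for B1F, -0.10 for B1, 0.08 for B2, 0.15 for B3 and 0.18 for B4. These sums are descriptions with no test, and the differences between families were not tested.

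B3 and B4 took a somewhat larger share of all SINE counts in knockouts 1 and 3. B3 and B3A together made up 18.3%, 18.3% and 19.7% in controls 1 to 3 and 21.3%, 19.5% and 20.7% in knockouts 1 to 3, so that control 3 was above knockout 2. B4 and B4A made up 8.71%, 8.82% and 9.55% against 10.6%, 9.35% and 10.2%, with the same overlap. The 14 names derived from 7SL RNA made up 62.0%, 60.5% and 59.9% in controls 1 to 3 and 56.4%, 58.5% and 57.6% in knockouts 1 to 3, so the groups did not overlap. Without B1_Mur4 the other 13 made up 54.3%, 53.2% and 53.4% against 52.7%, 55.0% and 52.2%, and the groups overlapped. Shares of 1 total are bound to each other. The widest 95% Wilson interval, for counting error only, was ± 0.128 percentage points for the share of a single name and ± 0.191 for these summed shares.

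With reads outside genes as the library size, the log2 fold changes of the 20 names other than B1_Mur4 ran from -0.03 for B1_Mm to 0.21 for B4A. B4A had 0.21 ± 0.13 (SE) and an unadjusted edgeR p of 0.132. B3 had 0.16 ± 0.12 and an unadjusted edgeR p of 0.22. The median over the 21 names was 0.04, and over all tested names 0.01. Of the 21 names 15 were above 0, beside 51.8% of all names. On this scale too edgeR called 0 of 21 SINE names and 0 of 853 names (0%), with 5.04% of names higher and 4.22% lower at an unadjusted p under 0.05.

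**Figure D3:**
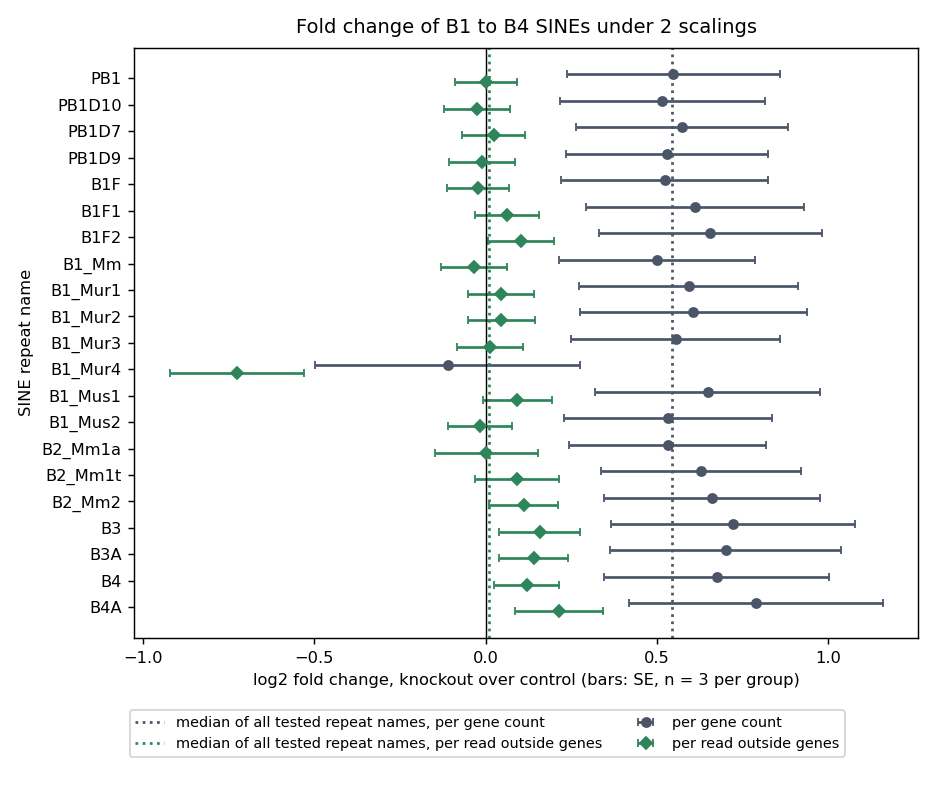
Log2 fold change, knockout over control, of each SINE name with its SE (3 embryos a group), with gene counts as library size (circles) and with reads outside genes as library size (diamonds). Dotted lines are the medians of all tested repeat names, 0.54 and 0.01. Scaling to reads outside genes brings 20 names to between -0.03 and 0.21 and leaves B1_Mur4 at -0.73.

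B1_Mur4 departed from the other 20 names on both scales. Its counts per 1000000 reads outside genes were 4547, 4739 and 4191 in controls 1 to 3 and 2323, 2188 and 3636 in knockouts 1 to 3. All 3 knockouts were below all 3 controls, which was so for 1 of the 21 SINE names and for 6.57% of all tested names, while all knockouts were above all controls for 0 of the 21 and 9.03% of all names. As a share of SINE counts it was 7.70%, 7.31% and 6.49% in controls 1 to 3 and 3.76%, 3.49% and 5.41% in knockouts 1 to 3, a mean of 7.16% ± 0.62 against 4.22% ± 1.04 (SD, n = 3 each). Knockout 3 was the closest to the controls. With reads outside genes as library size edgeR gave -0.73 ± 0.20 (SE) on the log2 scale, an unadjusted p of 0.0063 and an adjusted p of 0.426, so it was not called. With gene totals as library size and the outside-gene share held constant as a covariate it was -1.02, at an adjusted p of 0.523, also not called. The raw counts were 20250, 23299 and 23436 against 17611, 9107 and 29889, so counting error is small beside this difference. Whether 1 locus or many copies give this difference cannot be seen from counts per name.

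B2_Mm1a and B2_Mm1t, the younger B2 names, were highest in control 2 and knockout 2 per read outside genes. The counts per 1000000 reads outside genes of B2_Mm1a were 1432, 1987 and 1498 in controls 1 to 3 and 1482, 1820 and 1625 in knockouts 1 to 3. Control 2 was highest and knockout 2 next, so the order followed neither genotype nor the SINE total. B2_Mm1t had 1195, 1533 and 1263 against 1348, 1525 and 1381, with the same 2 embryos highest. B2_Mm2, the more abundant name, had 3895, 4514 and 4265 against 4366, 4577 and 4742. B2_Mm1a and B2_Mm1t were singled out after their values were seen.

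**Figure D4:**
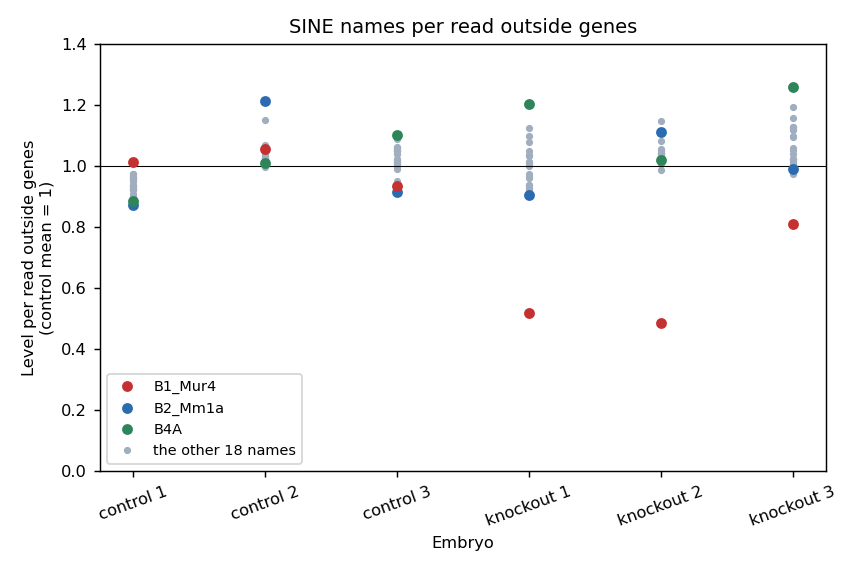
Level of each SINE name per read outside genes in each embryo, divided by the mean of the 3 controls, with 1 point per name. B1_Mur4 is below 1 in all 3 knockouts, B2_Mm1a is highest in control 2, and B4A is highest in knockout 3.

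Summed over their names, the other SINEs, LINE-1 and MaLR repeats were also highest in knockouts 1 and 3. The other 14 SINE names summed to 3293, 3816 and 4765 in controls 1 to 3 and 6773, 3720 and 6975 in knockouts 1 to 3. They had a median log2 fold change of 0.52, and ID_B1 and RSINE1, the most counted, gave 0.64 each with 0 names called by edgeR and 1 at an unadjusted p under 0.05. LINE-1, which supplies the copying enzymes, had a median of 0.71 over the 80 tested names that begin with L1. L1Md_T, the most counted of these in the controls and over all 6 embryos, ran the other way, with 352, 272 and 274 in controls 1 to 3, 298, 174 and 211 in knockouts 1 to 3 and a log2 difference of -0.39 ± 0.26 (SE) that edgeR did not call (adjusted p = 0.308). With reads outside genes as library size L1Md_T was at -0.93 ± 0.24 (SE), with every knockout below every control, and edgeR did not call it either (unadjusted p = 0.0056, adjusted p = 0.426). L1Md_F2, above L1Md_T in each knockout, gave 0.55 per gene count. MaLR elements, which are long terminal repeats, had a median of 0.52 over 79 names, with MTD at 0.59 and MTC at 0.67. None of these sets had a name called by edgeR, with 7 of 80 LINE-1 and 4 of 79 MaLR names at an unadjusted p under 0.05. Over all tested repeat names 11.6% were higher and 0% lower at that unadjusted edgeR p, which also stands beside the count of the other SINE names. Outside these sets not all of the most counted repeat names followed. MMSAT4 had 1653, 1806 and 1802 in controls 1 to 3 and 1796, 1659 and 1802 in knockouts 1 to 3. GA-rich had 1603, 1704 and 1789 against 1701, 1764.5 and 1692. AT_rich did follow, with 1329, 1467 and 1675 against 1848, 1461 and 1935.

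The parent RNAs of the SINEs were sparse in these libraries, which select polyadenylated RNA. The repeat name 7SLRNA had 87, 114 and 97 counts in controls 1 to 3 and 101, 107 and 147 in knockouts 1 to 3, a log2 difference of 0.38 ± 0.28 (SE) that edgeR did not call (adjusted p = 0.337). Over the 11 tested names of 7SL, 7SK and tRNA the median was 0.38. The name 7SK is not among the parents given above, so this median is not one of parent RNAs alone. Of the 11 names 0 were called by edgeR, with 2 at an unadjusted p under 0.05, beside 11.6% of all names higher and 0% lower. In that set tRNA-Ala-GCY_ gave 0.44 and 7SK 0.12. The most counted repeat name was ribosomal RNA, SSU-rRNA_Hsa, with 21.5% to 54.8% of repeat counts per library. B1 to B4 made up 5.72%, 9.31% and 11.7% of repeat counts in controls 1 to 3 and 15.1%, 9.81% and 20.2% in knockouts 1 to 3, a share that also moves with ribosomal RNA. Without the ribosomal names SSU-rRNA_Hsa, LSU-rRNA_Hsa and 5S the share was 24.2%, 26.0% and 27.6% in controls 1 to 3 and 30.7%, 24.4% and 31.5% in knockouts 1 to 3, and the groups overlapped.

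Genes that transcribe, bind or silence SINEs mostly did not pass the test. Over all 15075 tested genes edgeR called 0.577% higher and 0.935% lower, and the median log2 fold change was 0.00. Of 28 genes of RNA polymerase III transcription 1 was lower and 0 higher, with a list median of -0.0029 and 11 genes at an unadjusted p under 0.05, beside 10.8% of all genes higher and 8.39% lower, while DESeq2 called 1 higher and 3 lower, beside 3.03% of all genes higher and 2.14% lower by DESeq2. The lower gene was Crcp, a subunit of RNA polymerase III, with 28.3, 31.9 and 26.9 CPM in controls and 21.6, 19.9 and 20.2 CPM in knockouts. Crcp was -0.50 ± 0.10 (SE) on the log2 scale, and edgeR gave an adjusted p of 0.044. The groups did not overlap, but the edgeR adjusted p rose to 0.191 leaving out control 1, 0.126 for control 2, 0.0765 for control 3, 0.0651 for knockout 1 and 0.19 for knockout 3. Leaving out knockout 2 gave Crcp an edgeR adjusted p of 0.019. Snapc1, a subunit of the complex that activates small nuclear RNA genes, had a log2 fold change of 0.71 ± 0.16 and an edgeR adjusted p of 0.075.

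Of the 10 genes of the signal recognition particle edgeR and DESeq2 called 0, and 0 had an unadjusted p under 0.05. Srp9, whose product binds 7SL and B1 RNA, had a log2 fold change of -0.21 at an edgeR adjusted p of 0.333, and Srp54b had -0.29 at 0.422. The 19 tested genes of heterochromatin and DNA methylation also gave 0 calls by edgeR or DESeq2, with 2 at an unadjusted p under 0.05. Among them Cbx1, a heterochromatin protein, had -0.23 and Dnmt1, the maintenance DNA methyltransferase, 0.18. Of 13 genes of H3.3 and its deposition 2 were lower by edgeR, H3f3a and H3f3b themselves, and 0 higher.

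The 10 genes listed around chromatin factors at B2 elements gave 0 calls by edgeR or DESeq2 and 3 unadjusted p under 0.05. Among them Stag1, of cohesin, was at -0.17 and Pogz at 0.28. The 22 tested genes listed around the binding, editing and sensing of SINE RNA gave 0 calls by edgeR or DESeq2 and 4 unadjusted p under 0.05. Of these Hsf1, the heat shock transcription factor, had 0.33 at an edgeR adjusted p of 0.12, and Eif2ak2, the kinase PKR that senses double-stranded RNA, had -0.38 at 0.157. The 16 tested genes that degrade non-coding and intronic RNA gave 0 calls by edgeR, 2 unadjusted p under 0.05 and 1 lower gene by DESeq2, which called 2.14% of all genes lower. Xrn2, a nuclear exonuclease, had -0.29 and Skiv2l2, a helicase of the nuclear exosome, -0.24. Of the 17 whole-embryo markers edgeR called 1 higher and 0 lower, beside 0.577% of all genes higher and 0.935% lower. DESeq2 called 1 higher and 1 lower, beside 3.03% of all genes higher and 2.14% lower. The gene called by edgeR was Kdr, a receptor for VEGF, at 0.44 with an edgeR adjusted p of 0.031. Tubb3 of neurons had -0.44 at 0.103. For Kdr the edgeR adjusted p was 0.186 leaving out control 1, 0.117 for control 2, 0.081 for control 3 and 0.152 for knockout 3. Kdr was thus not called in those fits, which also have fewer samples. It stayed called by edgeR leaving out knockout 1 (adjusted p = 0.0287) or knockout 2 (0.0114). Its groups did not overlap, at 85.3 to 91.2 CPM in controls and 110 to 128 CPM in knockouts.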

How the data were processed

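For each embryo the authors deposited whole-number counts per gene symbol and per repeat name, without normalization. Per the labels, polyadenylated RNA was made into stranded libraries. The submitters' processing notes name mm9, Trimmomatic, TopHat2, Bowtie2 and HTSeq. The sources used here give neither the strand setting nor the annotations. Rows that name no gene or repeat (5 per file) stayed out of tests and library sizes.

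The test of repeat names was the robust quasi-likelihood test of edgeR 4.0.16 (R 4.3.3), with group as the single term, after filterByExpr (minimum count 10, minimum total 15). Library size was the gene total of the library, and genes used TMM. P-values were adjusted by Benjamini-Hochberg over all names or genes, with a threshold of 0.05. DESeq2 1.42.0 was an alternative. The fits were tested on simulated data. For repeat names 35% of 2-fold changes and 95% of 4-fold changes were called, beside 0.613% of unchanged names. For genes it was 84% and 100%, beside 0.101% of unchanged genes. The simulated names varied independently of each other, while the repeat names of these embryos largely moved together. These rates may therefore not hold for the repeat names here. In the simulation 2-fold changes of a repeat name often went uncalled, and changes below 2-fold could go uncalled here too. The biological coefficient of variation was 30.7% for repeats and 12.2% for genes. Names of the deposited files differ in a code between the groups, and the code is not the same in all knockouts. What the code marks is not given. A batch it might mark cannot be told apart from genotype, and it might also divide the knockouts.

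Members and gene lists were chosen with earlier results of these data known. Values per embryo were given for the most abundant name of each family and the 2 highest and 2 lowest log2 fold changes. From each gene list every called gene and the 2 smallest p were named, and of each comparison set of repeats the 2 most counted names. Alternatives were other library sizes, no filter, DESeq2, a covariate, a replicate block and each embryo left out. Sequences of these elements are not reported here.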

Additional observations from a re-analysis of the deposited data

How the results depend on the processing

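Repeat names called by edgeR, 0 higher and 0 lower, became 2 higher with DESeq2, and 9 higher and 7 lower in a fit that held the outside-gene share constant. Leaving out 1 embryo gave 0 to 572 repeat names higher and 0 to 2 lower, and 0 to 20 SINE names higher, each maximum without knockout 2. Genes called by edgeR, 87 higher and 141 lower, became 144 higher with no filter, 456 and 323 with DESeq2, and 8 to 1164 and 56 to 515 with 1 embryo left out. The summed SINE log2 ratio of 0.58 became 0.042 with TMM on the repeat counts and 0.024 per read outside genes, and 0.62 without B1_Mur4, an alternative chosen after seeing the data. The difference in reads outside genes, 4.43 percentage points, ran from 3.09 to 6.96 with 1 embryo left out. With the replicate number as a block, edgeR called 0 repeat names, and 333 genes higher and 254 lower. Controls and knockouts were also compared by the deviation of each embryo from the mean of its group, not by whole profiles. By these deviations same-numbered embryos correlated at -0.10, 0.23 and 0.31 over genes and at -0.35, 0.08 and 0.50 over repeat names. Embryos of unlike number ran from -0.48 to 0.39 over genes and from -0.55 to 0.51 over repeat names. Whether the numbers mark pairs cannot be told from these values.

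B1_Mur4, at -0.11, changed sign without knockout 2 alone, and leaving out 1 embryo gave -0.55 to 0.23. Over the other alternatives it ran from -1.02, with the outside-gene share held constant, to -0.11. Log2 fold changes of other names that changed sign lay near 0. With TMM on the repeat counts they were -0.0070 for B1F, -0.021 for B1_Mm, -0.0016 for B1_Mus2 and -0.011 for PB1D10. With reads outside genes as library size they were -0.022 for B1F, -0.035 for B1_Mm, -0.017 for B1_Mus2, -0.026 for PB1D10 and -0.011 for PB1D9. With the SINE total as library size they were -0.047 for B1F, -0.059 for B1_Mm, -0.0092 for B1_Mur3, -0.042 for B1_Mus2, -0.017 for B2_Mm1a, -0.023 for PB1, -0.049 for PB1D10, -0.0013 for PB1D7 and -0.035 for PB1D9. With the outside-gene share held constant they were -0.089 for B1F, -0.055 for B1F1, -0.031 for B1F2, -0.048 for B1_Mm, -0.072 for B1_Mur1, -0.11 for B1_Mur2, -0.053 for B1_Mur3 and B1_Mus1, and -0.087 for B1_Mus2. In that fit they were also -0.056 for B3, -0.029 for B3A and B4, -0.062 for B4A, -0.094 for PB1, -0.077 for PB1D10, -0.069 for PB1D7 and -0.052 for PB1D9. The cause of these sign changes was not tested.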
